A study of Mus musculus with 31 samples.

Results

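The 10 genes described here are members of the Notch pathway: the receptors Notch1, Notch2 and Notch3, the ligands Jag1, Jag2 and Dll1, the glycosyltransferase Lfng (lunatic Fringe), the DNA-binding effector Rbpj, the target gene Hes1 and the inhibitor Numb. They were picked by name, and each was found by its gene identifier in both count tables, which list 20704 genes for ribosome-protected fragments (RPFs) and 24593 for total RNA. All 10 passed the filter on low counts in both tables. Notch receptors are single-pass membrane proteins that are activated by ligands on a neighbouring cell. Cleavage by an ADAM protease and then by γ-secretase releases the intracellular domain, which enters the nucleus, binds Rbpj and recruits Mastermind coactivators to genes such as Hes1. Fringe enzymes add a sugar to O-fucose on the receptor's EGF repeats and so change which ligands it answers to, and Numb promotes removal of the receptor from the membrane. In the epidermis, Notch signalling is known for driving keratinocytes out of the basal layer, and in mouse skin Notch1 acts as a tumour suppressor.

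The cells were mouse skin squamous cell carcinoma (SCC) keratinocytes labelled HRasG12V and TgfbrIIfl/fl, derived from a line with an eGFP reporter and grown in E low medium. The study's list of cell lines instead gives the S51 and S51A lines as HRasG12V and TgfbrII D/D, so the sources differ on this allele. In every group the endogenous Eif2s1 alleles, which encode eIF2α, were ablated by CRISPR/Cas9, and a lentiviral, PGK promoter-driven, myc-tagged eIF2α was the remaining source. In S51 cells that protein was wild-type and the integrated stress response (ISR) was intact, whereas in S51A cells serine 51 was replaced by alanine (ISR-null). Cells received DMSO vehicle or 100 nM of the proteasome inhibitor bortezomib for 4.5 h according to the labels, and the study's text gives a slightly shorter time. Each genotype was kept as 2 clones grown from single cells, and the labels do not say which clone gave which library, so genotype and clone cannot be told apart. The labels do not say whether replicates were separate cultures. The study's captions call the replicates independent and biological, while its results text calls them technical. The p-values therefore measure the spread between these libraries, which may be technical.

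RPF libraries held 1038826 to 4902237 counts (3 of S51 vehicle, 4 of each other group) and total RNA libraries 18758668 to 22994713 (4 per group). Keratinocyte and SCC markers summed to 11100 to 16100 CPM in total RNA, where CPM is the read count relative to the library's scaled total, and the immune markers Ptprc, Cd3e, Lyz2 and Adgre1 to at most 0.182 CPM. The keratinocyte and SCC sum was mainly Krt5 and Krt14. By total RNA means, Krt5, Krt14, Itgb4, Cdh1, Krt8 and Krt18 were higher with bortezomib in both genotypes, and Trp63 and Itga6 were lower. Trp63 went from 341.8 to 180.8 CPM in S51 and from 401.4 to 194.9 CPM in S51A. All of these markers had lower means in S51 vehicle than in S51A vehicle, such as Itga6 at 1262 against 2144 CPM. Fibroblast, endothelial and melanocyte markers summed to at most 6.94, 4.88 and 2.17 CPM, mainly from Pdgfra, Kdr and Pmel. The suprabasal markers Krt1, Krt10 and Ivl summed in total RNA to 30.5 to 32.6 CPM in S51 vehicle, 14.8 to 17.2 in S51 bortezomib, 79.9 to 99.3 in S51A vehicle and 45.7 to 50.1 in S51A bortezomib. These sums therefore moved with both treatment and genotype, mainly through Ivl. Its group means were 24.45, 10.4, 78.4 and 39.92 CPM in the same order. Krt1 was at most 0.1443 CPM, and Krt10 means were 7.045, 5.588, 8.455 and 7.406 CPM. In RPF Ivl was again lower with bortezomib, but mean Krt10 was not (7.107 ± 3.74 against 4.527 ± 0.394 CPM in S51, 4.753 ± 2.23 against 4.12 ± 1.18 CPM in S51A). The part of these genes in the results was not tested. In bulk RNA, fewer cells of a type and less RNA per cell cannot be told apart. S51 vehicle RPF replicate 2 stood apart, with the highest level of its group for Notch1, Notch2, Jag2, Dll1, Lfng, Hes1 and Numb and the lowest for Eif2s1 (81.22 CPM against 161.5 and 171). Of the member calls it entered, that of Jag2 in S51 did not hold without it. Eif2s1 was at 279.1 to 314.1 CPM in total RNA in all groups. Its RPF level was 81.22 to 171 CPM in S51 vehicle and 212.6 to 259.8 CPM in S51A vehicle. With bortezomib the RPF ranges overlapped, at 148.4 to 195.6 CPM in S51 and 190.3 to 234.9 CPM in S51A. Transgene and endogenous transcripts are not separated in these counts, so Eif2s1 does not check the genotype labels. All values are relative to the library, so a change in overall protein synthesis or RNA per cell is not seen.

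Of the 10 members, Lfng had the largest response, and its start region is shown because it carries a pair of matches to the letters that Rbpj binds. The core searched was TGGGAA on either strand (TTCCCA on the other), in the 250 bases upstream of each RefSeq start site (GRCm38.p6). The table held 13 promoters of 9 members, all but Hes1, and 3 of these, of Lfng and Rbpj, had at least 1 match. Among all 32851 promoters, 21.6% had at least 1 match and 2.77% had 2 or more. The matches are in capitals below, each stretch running from 20 bases before the first to 20 after the last, on the plus strand of chr5:140607186-140607258 for Lfng and chr5:53590177-53590306 for the more upstream of the 2 Rbpj start sites in the table, whose promoters overlap. A match is a description of the letters and not a measured binding site.
Lfng: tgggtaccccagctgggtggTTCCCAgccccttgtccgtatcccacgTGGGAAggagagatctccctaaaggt
Rbpj: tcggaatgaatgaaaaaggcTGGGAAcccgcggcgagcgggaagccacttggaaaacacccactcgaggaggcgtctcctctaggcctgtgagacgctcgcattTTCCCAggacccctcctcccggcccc
The Lfng matches began 135 and 108 bases upstream of the start site (positions -135 and -108), and those of Rbpj at -149 and -65. Lfng and Rbpj are both on chromosome 5, Notch1 and Jag1 on chromosome 2, Jag2 and Numb on chromosome 12, and Notch3 and Dll1 on chromosome 17, while Notch2 is on chromosome 3 and Hes1 on chromosome 16.

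In vehicle-treated cells, levels were compared between genes as RPF density, the RPF CPM per kb of counted coding length (the coding sequence less 60 bases at its ends). In S51 vehicle the density was highest for Hes1 (91.2 ± 20.7, SD, n = 3), Jag1 (70.5 ± 3.64), Lfng (65.6 ± 18.3) and Jag2 (57.9 ± 19.6). It was 38.0 ± 11.1 for Notch1, 32.6 ± 10.7 for Dll1, 27.6 ± 6.42 for Rbpj, 16.9 ± 3.57 for Notch2 and 10.8 ± 2.3 for Numb. Notch3 was near the limit of detection at 0.336 ± 0.26, which rested on 1 to 11 counts per library. Neighbours in this order differed by less than the sum of their SDs, except Rbpj and Notch2, Notch2 and Numb, and Numb and Notch3. In S51A vehicle Jag1 led with 92.9 ± 3.75 (n = 4), above Hes1 at 62.0 ± 9.35 and Lfng at 57.8 ± 4.21. The order of the receptors was Notch1, Notch2 and Notch3 in all 4 groups, and bortezomib widened the gap, to 104 ± 7.34 for Notch1 against 18.1 ± 2.09 for Notch2 in S51 cells. Notch1 then had the highest density of the 10 genes in both genotypes.

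**Figure D1:**
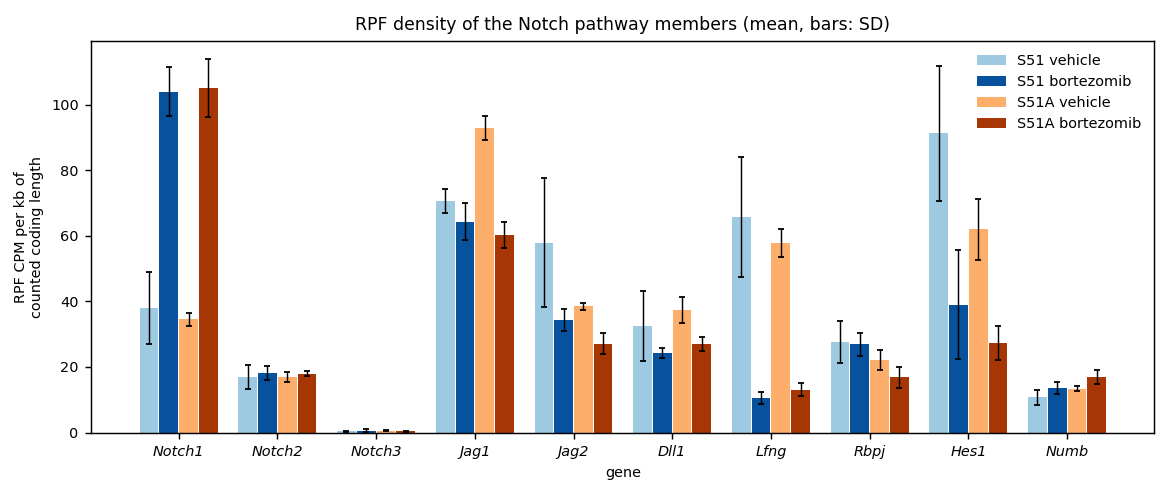
RPF density (RPF CPM per kb of counted coding length, vertical axis) of the 10 genes in the 4 groups; bars are means and error bars SD over 3 (S51 vehicle) or 4 libraries. Notch1 stands at 104 and 105 in the bortezomib groups against 38.0 and 34.6 in the vehicle groups, and Notch3 is near 0 throughout.

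Exposure to bortezomib changed the same 3 genes in S51 and S51A cells in both readouts: the receptor Notch1 rose, and Lfng and the target Hes1 fell. Calls required a fold above 1.5 (RPF) or 2 (total RNA) and an adjusted p below 0.05, from the quasi-likelihood F test of edgeR with Benjamini-Hochberg correction over all genes. In RPF, 4 of 10 members were called in S51 cells (1 higher, 3 lower), where 18.6% of all genes were called, and 4 of 10 in S51A cells (1 higher, 3 lower), where 10.9% were. In total RNA, 3 of 10 were called in S51 (1 higher, 2 lower; 4.99% of all genes) and 3 of 10 in S51A (1 higher, 2 lower; 4.18% of all genes). The median RPF log2 fold change of the members was -0.09 in S51 and -0.49 in S51A, against 0 and -0.01 over all genes tested. The S51 and S51A responses compare separate libraries, but 1 fit per readout gave them a shared estimate of the spread, so their p-values are not independent. Each comparison between genotypes reuses libraries of both.

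**Figure D2:**
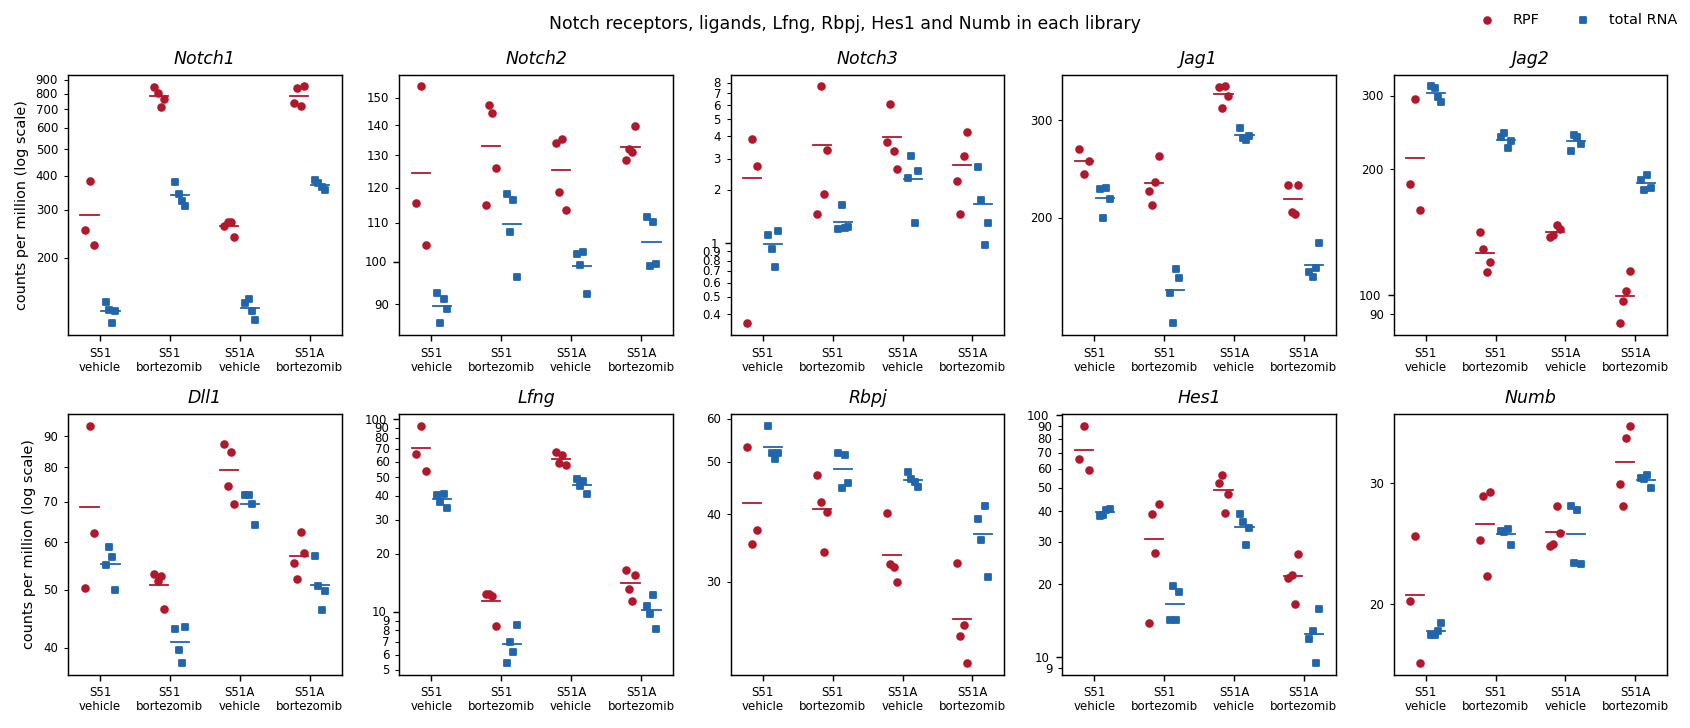
RPF (circles) and total RNA (squares) level of each gene in every library, in CPM on a log axis, with the mean of each group as a line. Notch1 is higher, and Lfng and Hes1 are lower, in all bortezomib libraries than in any vehicle library of the same genotype and readout.

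Among the receptors, Notch1 had RPF levels of 253.6, 381 and 223.5 CPM in the 3 S51 vehicle libraries and 845.7, 805.4, 717.5 and 761.8 CPM in the 4 S51 bortezomib libraries. In S51A cells it had 262.1, 270.1, 271 and 239.1 CPM with vehicle and 738.1, 838.6, 723 and 850.7 CPM with bortezomib. Treated and untreated libraries were far apart in both genotypes, and the 2 genotypes overlapped. The RPF log2 fold change was 1.46 (SE 0.132, adjusted p = 2.22e-08) in S51 and 1.60 (SE 0.119, adjusted p = 2.06e-09) in S51A. Its total RNA went from 127 ± 9.23 to 338.9 ± 30.3 CPM in S51 (SD, n = 4 and 4; log2 fold change 1.42, adjusted p = 6.18e-16) and from 130.8 ± 10.1 to 370.6 ± 13.5 CPM in S51A (2.834-fold, adjusted p = 2.42e-16). No difference between the 2 responses passed the threshold for Notch1 in RPF (log2 -0.14, SE 0.173) or total RNA (-0.09, SE 0.0824).

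The other receptors were not called with bortezomib. Notch2, the second receptor expressed here, had RPF log2 fold changes of 0.11 (SE 0.124) in S51 and 0.09 (SE 0.112) in S51A. Its total RNA in S51 was 89.6 ± 2.92 CPM with vehicle and 109.6 ± 10.1 CPM with bortezomib, a log2 difference of 0.29 (adjusted p = 6.71e-05) that stayed under the fold limit, and in S51A it was 98.86 ± 4.62 and 105 ± 6.86 CPM. Notch3, known from vascular smooth muscle and also present in suprabasal epidermis, had 1 to 29 RPF counts and 16 to 67 total RNA counts per library. The S51 total RNA groups did not overlap (0.7344 to 1.172 CPM with vehicle and 1.21 to 1.638 CPM with bortezomib), but at this depth no response of Notch3 to bortezomib was detectable in either genotype (RPF log2 0.47, SE 0.608 in S51 and -0.53, SE 0.465 in S51A).

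The ligands differed among themselves. Jag1, a ligand of the Jagged class with high RPF density in these cells, had RPF levels of 266.4, 240.3 and 253.7 CPM in S51 vehicle and 223.4, 211.4, 232.2 and 258.8 CPM in S51 bortezomib. In S51A it had 343.9, 316.1, 345.3 and 332 CPM with vehicle and 229.1, 205.2, 203.4 and 229.4 CPM with bortezomib. The S51 groups overlapped (log2 -0.13, SE 0.0884, adjusted p = 0.288), whereas the S51A groups did not and the decrease was called (-0.62, SE 0.0806, adjusted p = 7.09e-06). The difference between the responses was 0.49 (SE 0.12, adjusted p = 0.0297), under the fold limit of 1.5, and leaving out 1 library at a time gave adjusted p values from 0.00642 to 0.0824. They were above 0.05 without S51 bortezomib replicate 3 or 4, S51A vehicle replicate 1, 3 or 4, or S51A bortezomib replicate 2 or 3. Both genotypes ended near the same RPF level, and the groups that stood apart were the vehicle groups, 253.5 ± 13.1 CPM in S51 and 334.3 ± 13.5 CPM in S51A.

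Jag1 total RNA was lower with bortezomib in both genotypes. It was 225.9, 199.7, 226.4 and 216.2 CPM in S51 vehicle against 146.2, 129.1, 162 and 155.9 CPM in S51 bortezomib, and 290, 279.2, 276.8 and 280.7 CPM in S51A vehicle against 160, 156.3, 162.5 and 179.9 CPM in S51A bortezomib. Groups did not overlap in either genotype. The log2 differences were -0.55 (adjusted p = 5.19e-09) and -0.77 (adjusted p = 1.32e-11), both under the fold limit of 2 for total RNA, and only the S51A value passed at a limit of 1.5. The 2 total RNA responses differed by 0.22 (SE 0.077, adjusted p = 0.0384, and 0.00362 to 0.104 when single libraries were left out).

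Jag2, the other Jagged ligand, had RPF levels of 184.6, 295.4 and 160.1 CPM in S51 vehicle and 141.9, 129.1, 113.9 and 120.4 CPM in S51 bortezomib. The decrease was called (log2 -0.75, SE 0.153, adjusted p = 0.000789), but it rested on S51 vehicle replicate 2, the highest library, without which it was -0.46 (adjusted p = 0.000498) and under the fold limit. In S51A the level was 142 ± 4.11 CPM with vehicle and 99.92 ± 12 CPM with bortezomib (log2 -0.51, adjusted p = 0.0133, under the fold limit). Its total RNA differed by less, -0.37 in S51 and -0.33 in S51A. Dll1, a Delta-like ligand, had log2 differences between -0.41 and -0.46 in both readouts and both genotypes, none past the fold limits. Its total RNA groups did not overlap in S51 (55.13 ± 3.81 against 40.92 ± 2.66 CPM) or in S51A (69.39 ± 3.65 against 50.86 ± 4.47 CPM). In RPF its S51 groups overlapped (adjusted p = 0.0599), and its S51A groups did not (adjusted p = 0.023).

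Lfng, which modifies the receptors in the Golgi, fell furthest. Its RPF level was 65.54, 92.34 and 54.02 CPM in S51 vehicle and 12.37, 12.43, 12.1 and 8.402 CPM in S51 bortezomib, the latter on 13 to 32 counts per library. In S51A it was 67.28, 59.34, 64.74 and 57.6 CPM with vehicle and 16.43, 13.16, 11.44 and 15.48 CPM with bortezomib. No treated library came near an untreated one. The RPF log2 fold change was -2.62 (6.158-fold lower, SE 0.199, adjusted p = 1.4e-09) in S51 and -2.10 (4.292-fold lower, SE 0.169, adjusted p = 7.12e-09) in S51A. Total RNA was 40.52, 37.22, 40.85 and 34.53 CPM in S51 vehicle against 5.444, 6.986, 6.221 and 8.544 CPM in S51 bortezomib, and 48.77, 44.9, 47.6 and 40.79 CPM in S51A vehicle against 10.72, 9.752, 12.17 and 8.129 CPM in S51A bortezomib. These were log2 fold changes of -2.49 (SE 0.107, adjusted p = 1.13e-15) and -2.16 (SE 0.0999, adjusted p = 5.11e-15). The larger size in S51 was not past the threshold as a difference between responses (RPF -0.52, SE 0.276, adjusted p = 0.372, total RNA -0.33, SE 0.152, adjusted p = 0.128).

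Rbpj, the DNA-binding partner of the cleaved receptor, had RPF log2 fold changes of -0.06 (SE 0.174) in S51 and -0.36 (SE 0.164) in S51A, neither called. Its total RNA in S51A was 46.23 ± 1.23 CPM with vehicle and 36.72 ± 4.67 CPM with bortezomib (log2 -0.33, adjusted p = 0.000281, under the fold limit). The Rbpj stretch printed above, like that of Lfng, holds 2 matches.

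Hes1, a transcriptional repressor and the best-known Rbpj target, had RPF levels of 65.89, 90.41 and 59.49 CPM in S51 vehicle and 13.83, 39.22, 26.86 and 43.13 CPM in S51 bortezomib. In S51A it had 52.33, 56.59, 39.42 and 47.26 CPM with vehicle and 21.26, 21.93, 16.64 and 26.69 CPM with bortezomib. Groups did not overlap within a genotype, although the S51 bortezomib libraries spread widely. The RPF log2 fold change was -1.22 (SE 0.229, adjusted p = 0.000364) in S51 and -1.17 (SE 0.217, adjusted p = 0.000443) in S51A. Total RNA fell from 39.7 ± 1.34 to 16.67 ± 2.82 CPM in S51 (-1.25, adjusted p = 4.58e-10) and from 34.56 ± 4.18 to 12.51 ± 2.62 CPM in S51A (-1.46, adjusted p = 9.02e-11). The difference between the responses was -0.05 (SE 0.323) in RPF and 0.21 (SE 0.159) in total RNA, neither past the threshold.

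Numb, which counteracts the receptor, was not called. Its total RNA groups nevertheless did not overlap, at 18.02 to 18.75 CPM in S51 vehicle and 24.4 to 25.76 CPM in S51 bortezomib (log2 0.47, adjusted p = 8.69e-07). In S51A they were 22.87 to 27.79 and 29.48 to 30.85 CPM (log2 0.26, adjusted p = 0.000693). The RPF log2 differences were 0.36 (SE 0.176) and 0.34 (SE 0.143).

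**Figure D3:**
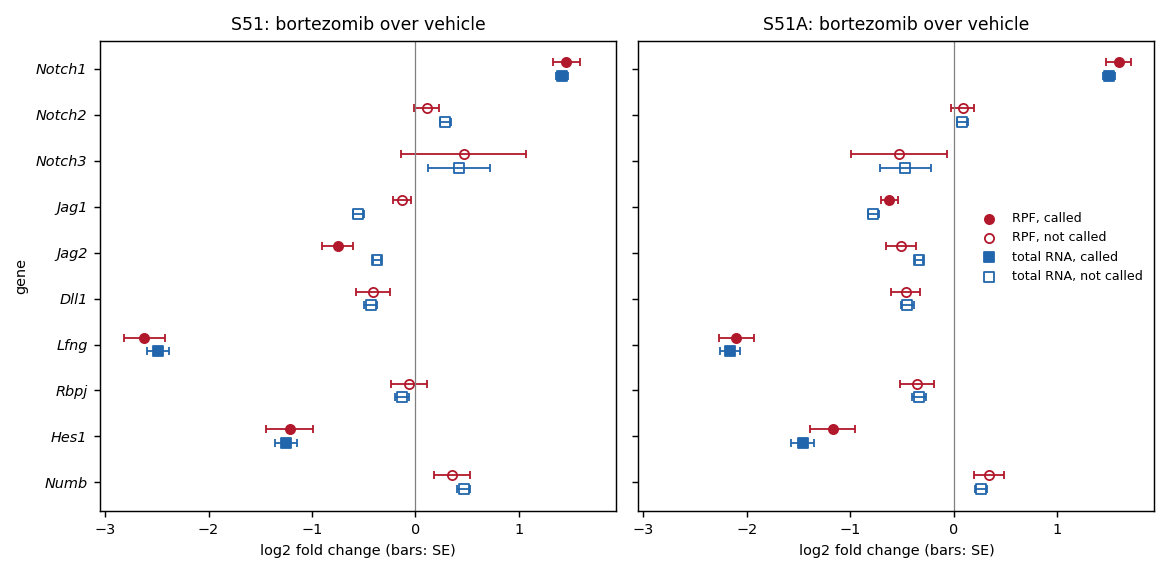
Log2 fold change of bortezomib over vehicle (horizontal axis, bars are SE) for each gene in S51 (left) and S51A (right), RPF as circles and total RNA as squares, filled where called. Notch1 lies between 1.42 and 1.60 and Lfng between -2.62 and -2.10 in all 4 comparisons, and the filled Jag1 RPF point appears only in S51A.

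To ask whether ribosome occupancy moved apart from the mRNA, the ratio of RPF to total RNA (translational efficiency, TE) was tested as an interaction in 1 model over all 31 libraries. The study drew both kinds of library from the same lysates, but this model did not pair them. No member was called at a fold above 1.5 in any of 5 TE comparisons, by edgeR, by DESeq2 or with the lysate as a block. Over all genes, 5.16% were called for the S51 response, 0.944% for the S51A response, 0.0849% between the vehicle groups, 2.98% between the bortezomib groups and 1.29% for the difference between responses. At an unadjusted p below 0.05, Jag1 and Jag2 passed in the S51 response (23.2% of all genes did), none in the S51A response (6.42%), Lfng between the vehicle groups (14.6%), Jag1 between the bortezomib groups (18.5%) and none for the difference between responses (12%). For the 3 genes that were called in both genotypes no TE difference passed the threshold. In S51 and S51A the log2 differences were 0.07 (SE 0.144) and 0.11 (SE 0.136) for Notch1, -0.09 (SE 0.281) and 0.09 (SE 0.226) for Lfng, and 0.06 (SE 0.261) and 0.30 (SE 0.259) for Hes1. RPF counts of Lfng and Hes1 were low with bortezomib, 13 to 51 and 19 to 77 per library.

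Jag1 was the only member with a TE difference at an adjusted p below 0.05, and this was in the S51 response. The ratio of RPF CPM to total RNA CPM in the same numbered lysate was 1.18, 1.2 and 1.12 in S51 vehicle and 1.53, 1.64, 1.43 and 1.66 in S51 bortezomib, with no overlap. It was 1.19, 1.13, 1.25 and 1.18 in S51A vehicle and 1.43, 1.31, 1.25 and 1.28 in S51A bortezomib, where the groups touched at 1.25. The TE log2 difference was 0.44 (SE 0.102, adjusted p = 0.00352, and 0.00153 to 0.0169 when single libraries were left out) in S51, under the fold limit, and 0.17 (SE 0.0949, adjusted p = 0.868) in S51A. The difference between these was 0.27 (SE 0.139, adjusted p = 0.46) and did not pass. Jag2 went the other way in S51 (-0.36, SE 0.153, adjusted p = 0.14). Hes1 ratios also did not overlap in S51A, at 1.34 to 1.57 with vehicle and 1.69 to 1.79 with bortezomib, but its TE difference did not pass. In S51 the Hes1 ratios overlapped. Upstream ATG triplets in the annotated 5′ leader numbered 2 in Jag1, 1 each in Notch2, Dll1 and Hes1, and 0 in Notch1, Notch3, Jag2, Lfng and Rbpj, and no relation to TE was tested. Of the 9 members with an annotated leader 4 had at least 1, against 50.3% of 19063 genes.

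**Figure D4:**
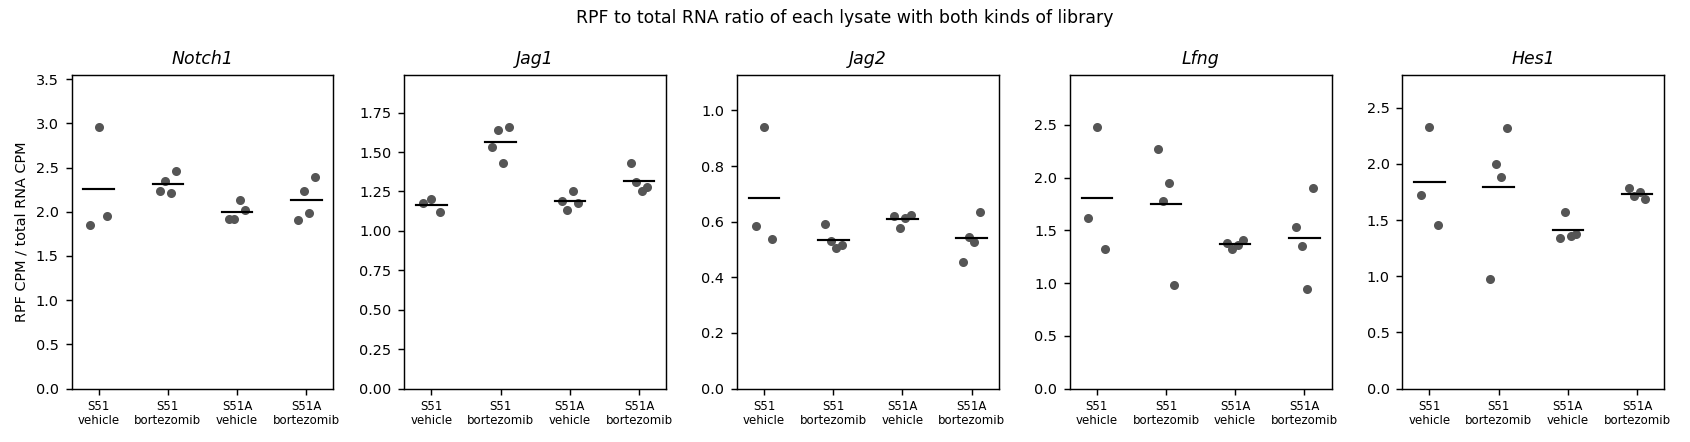
Ratio of RPF CPM to total RNA CPM (vertical axis from 0) for each numbered lysate with both kinds of library, with the mean of each group as a line. For Jag1 the 4 S51 bortezomib ratios, 1.43 to 1.66, lie above all 3 S51 vehicle ratios, which reach 1.2.

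The genotypes were then compared within each treatment. With vehicle, no member was called in RPF, where 15.8% of all genes were called, and at an unadjusted p below 0.05 Jag1, Jag2, Hes1 and Numb passed, as did 39.4% of all genes. DESeq2 called 1 member in this comparison, Jag2. Jag1 was lower in S51 than in S51A (log2 -0.40, adjusted p = 0.00161) and Jag2 higher (0.57, adjusted p = 0.00556), both under the fold limit. The Jag2 difference was 0.27 (adjusted p = 0.0246) without S51 vehicle replicate 2 and 0.79 (adjusted p = 0.000183) without S51 vehicle replicate 3. The total RNA had the same signs, Jag1 at 217 ± 12.5 CPM in S51 and 281.7 ± 5.78 CPM in S51A (-0.38, adjusted p = 1.44e-06) and Jag2 at 304.5 ± 12.5 and 233.3 ± 8.97 CPM (0.38, adjusted p = 4.44e-09). In total RNA 1 member was called, Notch3, against 7.87% of all genes. Its levels were 1.107, 0.9282, 0.7344 and 1.172 CPM in S51 vehicle and 2.327, 3.092, 1.304 and 2.541 CPM in S51A vehicle (log2 -1.24, SE 0.269, adjusted p = 0.000315), on 16 to 67 counts. In RPF the Notch3 vehicle groups overlapped (-0.84, SE 0.507). The suprabasal marker sums, mainly Ivl, were also lower in S51 vehicle, as given above. Of the other low-level markers, Pdgfra total RNA was lower in S51 vehicle (3.081 ± 0.376 against 5.609 ± 0.992 CPM) and Kdr higher (3.755 ± 0.66 against 1.363 ± 0.304 CPM).

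With bortezomib, 1 member was called in RPF, Rbpj, against 17.7% of all genes. It had 47.31, 42.09, 34.04 and 40.33 CPM in S51 and 32.54, 23.88, 24.97 and 21.28 CPM in S51A. The groups did not overlap (log2 0.64, SE 0.174, adjusted p = 0.00796). The value was close to the fold limit: it was 0.56 (adjusted p = 0.0314) without S51 bortezomib replicate 1 and 0.55 (adjusted p = 0.0324) without S51A bortezomib replicate 4, both under it. Without S51 bortezomib replicate 1, Hes1 was called in place of Rbpj. No member was called in total RNA, where 8.28% of all genes were called, and at an unadjusted p below 0.05 Notch1, Jag1, Jag2, Dll1, Lfng, Rbpj, Hes1 and Numb passed, as did 68.2% of all genes, while DESeq2 called 0. Rbpj total RNA was 48.4 ± 3.72 CPM in S51 and 36.72 ± 4.67 CPM in S51A (0.40, adjusted p = 2.52e-05). Lfng total RNA was lower in S51, 6.799 ± 1.32 against 10.19 ± 1.7 CPM (-0.58, adjusted p = 0.000283). Hes1 was higher, 16.67 ± 2.82 against 12.51 ± 2.62 CPM (0.41, adjusted p = 0.00555), with overlapping groups for both genes.

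The difference between the responses of the genotypes was called for no member in RPF or total RNA, where 1.86% and 0.478% of all genes were called. At an unadjusted p below 0.05 only Jag1 passed in RPF (16.1% of all genes did), and Jag1, Notch2, Notch3, Lfng and Numb passed in total RNA (34% of all genes), while DESeq2 called 0 in both.

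A list of 56 other genes of the pathway was counted in the same way. In RPF 39 were tested, and 4 were called higher and 9 lower in the S51 response, which is 33.3% against 18.6% of all genes. In the S51A response 1 was higher and 5 lower, 15.4% against 10.9%. The median log2 fold changes were -0.09 and -0.07, against 0 and -0.01 over all genes. In total RNA 46 were tested, and 0 were higher and 3 lower in S51 (6.52% against 4.99% of all genes), 0 and 2 in S51A (4.35% against 4.18%). Myc, a growth regulator and Notch target in several tissues, fell in both readouts, with RPF log2 fold changes of -2.11 in S51 and -2.53 in S51A (adjusted p = 2.45e-10 and 2.38e-11). Its RPF level was 262.1 to 397.4 CPM in S51 vehicle and 62.17 to 80.1 CPM in S51 bortezomib. Dtx4, a Deltex ubiquitin ligase, fell in RPF by 1.59 in S51 (adjusted p = 3.09e-05) and by 1.19 in S51A (adjusted p = 0.00976, and 0.0578 without S51A bortezomib replicate 1). Dlk2, a Delta-like protein without the domain that activates receptors, fell in RPF, with log2 fold changes of -1.52 in S51 and -1.03 in S51A (adjusted p = 3.25e-06 and 0.000174). Neurl1b, a ubiquitin ligase for ligands, fell in total RNA, with log2 fold changes of -1.11 in S51 and -1.27 in S51A (adjusted p = 7.95e-07 and 1.34e-06).

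Nrarp, a feedback inhibitor induced by Notch that binds the Rbpj complex, responded differently in RPF. It had 25, 8 and 20 counts in S51 vehicle and 1, 1, 2 and 3 counts in S51 bortezomib, against 13, 24, 10 and 35 and then 14, 12, 7 and 13 counts in S51A. Pooled over libraries, vehicle over bortezomib was 5.81-fold in S51 (95% exact interval 2.63 to 15.2) and 1.24-fold in S51A (0.852 to 1.82), intervals that cover counting error only. The difference between responses was -2.23 (SE 0.57, adjusted p = 0.0391), the 1 call among the 39 genes tested (2.56%, against 1.86% of all genes). It was lost on leaving out any of 11 of the 15 libraries (adjusted p 0.0116 to 0.136 over all 15), all but S51 vehicle replicates 2 and 3, S51A vehicle replicate 4 and S51A bortezomib replicate 3, and DESeq2 gave no adjusted p. Nrarp total RNA was lower with bortezomib in both genotypes, at 12.59 to 15.56 against 25.36 to 28.73 CPM in S51 and 17.12 to 18.31 against 30.02 to 33.21 CPM in S51A.

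Between genotypes, 2 pathway genes were higher and 1 lower in RPF with vehicle (7.69% against 15.8% of all genes), and 4 were higher and 4 lower with bortezomib (20.5% against 17.7%). Dtx4 was higher in S51 in both readouts, at 23.9 to 25.14 RPF CPM against 5.49 to 6.542 in S51A with vehicle (log2 2.07, adjusted p = 4.48e-07). Ccnd1, cyclin D1, was higher (0.61, adjusted p = 0.00282) but under the fold limit without S51 vehicle replicate 2 (0.31) or S51A vehicle replicate 4 (0.58), and in the fit with the replicate block (0.58). Dtx2, another Deltex protein, was lower (-0.60, adjusted p = 0.0346), a call lost with DESeq2, RLE factors, library totals alone, no filter and only the groups compared, and on leaving out S51 vehicle replicate 1 or 3 or S51A vehicle replicate 1, 2 or 3 (-0.36, adjusted p = 0.239 without S51 vehicle replicate 3). With bortezomib, Nrarp (-2.17, adjusted p = 0.00152) and the Hes-family member Hes6 (-1.02, adjusted p = 0.00445) were lower in S51. In TE, 3 pathway genes were higher and 4 lower in the S51 response (17.9% against 5.16% of all genes) and 0 were called in the S51A response (0.944% of all genes). Among the lower ones was the coactivator Crebbp (-0.90, adjusted p = 1.69e-06). The TE difference between responses was called for Crebbp (-0.95, adjusted p = 0.0012), Nrarp (-2.11, adjusted p = 0.0302) and Poglut1, which puts O-glucose on Notch (1.01, adjusted p = 0.0218). These were 7.69% of the pathway genes tested, against 1.29% of all genes. When single libraries were left out, the adjusted p ran from 0.000448 to 0.00438 for Crebbp, from 0.0109 to 0.142 for Nrarp and from 0.00685 to 0.0662 for Poglut1.

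The genes whose RPF pattern was most like that of 3 members were found by Pearson correlation of log2 CPM over the 15 RPF libraries among 8831 genes, as a description in which all points share libraries and treatment. For Lfng they were Trp63 (0.976), which encodes the basal keratinocyte factor p63, Tns4 (0.971) and Faap100 (0.970). Mean Trp63 RPF was also lower with bortezomib, from 561.6 to 223.1 CPM in S51 and from 593.5 to 288.3 CPM in S51A. For Hes1 they were Zmynd8 (0.923), Trmt2a (0.917) and Kat2a (0.916). For Jag1 they were Tnfaip3 (0.901), Tgif1 (0.878) and Plau (0.878).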

How the data were processed

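RPF and total RNA from 4 groups of mouse SCC cells were sequenced. The authors deposited raw read counts per gene, by Entrez identifier, with no normalization. Per the labels, reads were aligned to mm10 with Bowtie2 and counted with featureCounts. The study's methods name FastX, bowtie2 and plastid, with RPF counted inside coding sequences away from both ends. Versions are not given in the sources used here. Read counting can be limited by duplicates, and the study's text does not say whether molecular identifiers were used. A short gene such as Hes1 gets few RPF counts.

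A note to the series states that titles of the S51 bortezomib and S51A vehicle samples were exchanged while the data stayed with each sample. The columns of these groups were therefore read as carrying the numbers of the earlier titles, which differ from the numbers in the present ones. The study's own count table names the proportional columns by the same conditions. If the column numbers instead followed the present titles, S51 bortezomib and S51A vehicle would change places throughout. No column was left out.

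Identifiers were matched to symbols in the RefSeq table (20687 of 20704 and 24569 of 24593). In R 4.3.3 with edgeR 4.0.16, counts were filtered by filterByExpr (10 counts, total 15), which left 9457 genes for RPF, 11708 for total RNA and 9424 for TE, scaled by TMM and fitted by glmQLFit with 1 coefficient per group. Contrasts were tested by glmQLFTest, two-sided. The fits were tested on simulated data. DESeq2 1.42.0, limma 3.58.1 voom, other scalings, no filter, blocks and leaving out each library were the alternatives. Coding lengths and leaders came from GENCODE M21, the longest RefSeq-linked coding sequence of each gene.

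Replicates were checked for libraries deposited more than once, and none was found: the chi-square per gene was at least 1.64 over 21 RPF pairs and 2.69 over 24 total RNA pairs. Named genes were the 10 members everywhere and, from the pathway list, at most the 3 called genes of largest change per comparison and readout. Some of these are not reported here. For likeness, genes had a mean RPF level of at least 5 CPM, with a prior count of 2. The members, lists and tests were chosen with earlier results of these data known.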

Additional observations from a re-analysis of the deposited data

Results flagged for a closer look

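Of 110 groups of 4 libraries examined for 1 value far from the rest, 4 held one, and chance alone sets about 1 group in 20 apart. The RPF level of Lfng was 8.402 CPM in 1 S51 bortezomib library against 12.1 to 12.43 CPM in the other 3. Notch3 total RNA was 1.638 CPM in 1 S51 bortezomib library against 1.21 to 1.228 CPM in the others. The RPF to total RNA ratio of Rbpj was 0.841 in 1 S51A vehicle lysate against 0.67 to 0.697. Eif2s1 total RNA was 298.8 CPM in 1 S51 vehicle library against 311.7 to 314.1 CPM.

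At an adjusted p below 0.05 and with no fold limit, responses to bortezomib differed between S51 and S51A by the test of the difference itself, the quasi-likelihood F test of edgeR with Benjamini-Hochberg correction over all genes, for Jag1 in RPF (log2 0.49, adjusted p = 0.0297) and total RNA (0.22, adjusted p = 0.0384). Both Jag1 differences were under the fold limits and so were not called, and leaving out single libraries took their adjusted p to 0.0824 and 0.104. Nrarp also differed by this test, in RPF (-2.23, adjusted p = 0.0391) and in TE (-2.11, adjusted p = 0.0302), and was past the fold limit in each. Leaving out single libraries took these adjusted p to 0.136 and 0.142, and the RPF call was lost in 11 of 15 such fits. In TE, Poglut1 (1.01, adjusted p = 0.0218) and Crebbp (-0.95, adjusted p = 0.0012) differed too and were called. Leaving out single libraries took their adjusted p to 0.0662 and 0.00438.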

How the results depend on the processing

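Of 408 counts of members under an alternative, 13 moved by over 1.5 times. Signs were followed only for members with an adjusted p below 0.05 in the main fit and for named pathway genes where called. None of these reversed, and the signs of other member values were not examined. The RPF count between vehicle groups was 0, and it was 1 with DESeq2, with RLE factors, with library totals alone, with no filter (Jag2 each time) and with the replicate block (Hes1). Leaving out 1 library gave 0 to 2 for that count (Jag2 without S51 vehicle replicate 1 or 3, S51A vehicle replicate 3 or S51A bortezomib replicate 2, and Hes1 without S51 vehicle replicate 3), and 0 to 1 for RPF between the bortezomib groups. It gave 0 to 1 for the total RNA difference between responses (Notch3 without S51A vehicle replicate 3 or S51A bortezomib replicate 1) and for TE between vehicle groups (Lfng without S51 vehicle RPF replicate 3). Jag1's RPF difference between responses had adjusted p values from 0.00337 to 0.0462 over 5 other settings. Total RNA scaling factors were 1.039 to 1.056 with vehicle and 0.9315 to 0.9826 with bortezomib, and small log2 differences moved with the settings. Over 7 other settings, total RNA gave 0.138 to 0.301 for Notch2 in S51 and 0.149 to 0.271 for Numb in S51A. Jag1 TE in S51 was 0.417 to 0.582. In TE, Nrarp lost its call for the S51 response with DESeq2 (adjusted p = 0.0594), the lysate as a block (0.0993) and voom (0.0923). With the lysate block and voom it also lost that of the difference between responses (0.119 and 0.0836), as did Poglut1 (0.0673 and 0.0697). The cause of these shifts was not tested.

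Replicate numbers were not taken as pairs across groups, since the correlations of same-numbered libraries' deviations were not all over 0.1: -0.158 to 0.261 (RPF) and 0.00213 to 0.191 (total RNA). In total RNA their median was 0.0922, against -0.0345 (at most 0.0992) for differently numbered libraries, a hint of shared deviation. These correlations were taken within 1 readout, so they do not bear on the pairing of RPF with total RNA by lysate. With the replicate block, 1725 RPF and 586 total RNA genes were called for the S51 response, against 1757 and 584 without. Over all genes, a total RNA limit of 1.5-fold called 1790 and 1535 genes for the S51 and S51A responses, against 584 and 489. The TE difference between responses gave 210 genes with DESeq2, 64 with the lysate block and 75 with voom, against 122. RPF depth limits Notch3, Nrarp and treated Lfng and Hes1.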
